A study of Mus musculus with 6 samples.

Results

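Matrix metalloproteinases (MMPs), ADAMs, ADAMTS proteases and the tissue inhibitors of metalloproteinases (TIMPs) were described in the inguinal fat pad, a subcutaneous white adipose depot, of Mpst knockout and wild-type mice that were all on a high-fat diet. Members were taken by gene symbol, as every listed Mmp, Timp, Adam or Adamts symbol followed by its number, which gave 79 of 24984 listed genes. They were 23 MMPs, 4 TIMPs, 33 ADAMs and 19 ADAMTS genes. Bulk RNA was sequenced from 3 Mpst knockout (KO) and 3 wild-type (WT) samples. MPST is a sulfurtransferase of mitochondria and cytosol that makes hydrogen sulfide. The labels give neither the allele, strain, sex and age nor the length of the diet. They number the samples without saying that each is a separate animal. The p-values therefore measure how far these samples spread, and that spread may be technical.

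MMPs are zinc proteases that cut collagens, elastin and other matrix proteins, most as secreted proenzymes and some anchored in the membrane. ADAMs are membrane proteins with a disintegrin and, in most members, a protease domain that releases the outer part of other membrane proteins such as TNF, EGF receptor ligands and Notch. ADAMTS proteases are secreted, bind the matrix through thrombospondin repeats and cut proteoglycans and procollagens. TIMPs block the active site of MMPs, and TIMP3 also that of several ADAMs and ADAMTS proteases. In growing fat, these enzymes reshape the collagen net around adipocytes, and adipocytes, stromal cells and macrophages each make some of them.

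Sequencing gave 8054560 to 22458630 counts in genes per KO library and 17394489 to 21576075 per WT library, with the fewest in KO replicate 1. Mpst had 3, 10 and 9 counts in the KO libraries and 1358, 1394 and 1624 in the WT libraries, so every library matched its label. The 10 adipocyte markers, Adipoq, Plin1 and Fabp4 among them, summed to 42128 to 50498 CPM (counts per 1000000 counts of the normalised library) in KO and 61926 to 72475 CPM in WT, so the defining markers of the labelled tissue were present. In bulk tissue, fewer cells of a type and less RNA per cell cannot be told apart. The 12 macrophage markers summed to 2053 to 2268 CPM in KO and 904 to 1661 CPM in WT. Of them 5 passed the test and were higher in KO, against 4.76% of all tested genes, and no marker of that list was at 0. By log2 fold change, 11 of the 12 were above 0 and 1 was below. The 9 markers of progenitors and fibroblasts summed to 5279 to 6582 CPM in KO and 3329 to 4780 CPM in WT. Of these, Col3a1, Dcn and Lum were called higher, where 4.76% of all tested genes were, and Col3a1 and Col1a2 were the most abundant. Pi16, Dpp4 and Thy1 of the same list had log2 fold changes of −2.10, −0.46 and −0.06, not called by edgeR, though DESeq2 called Pi16. Endothelial markers summed to 1053 to 1245 CPM in KO and 904 to 959 CPM in WT. Mast cell markers summed to 61.2 to 62.4 CPM in KO and 35.7 to 43.5 CPM in WT. Sums for T cells, B cells, neutrophils, and smooth muscle with pericytes overlapped between genotypes. Markers of skeletal muscle summed to 1834 CPM in KO replicate 3 and 770 CPM in WT replicate 2, against 41.6 to 133 CPM in the other 4 libraries. The part of these cell types and of muscle in the results on MMPs, ADAMs and TIMPs was not tested.

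Of the 79 members, 46 passed the filter on low counts and were tested. Among these, 6 were higher and 1 was lower in KO at an adjusted p under 0.05 by edgeR's quasi-likelihood test. That is 15.2% of the tested members, against 7.41% of all 14065 tested genes. In the direction higher it is 13% against 4.76%, and in the direction lower 2.17% against 2.65%. The members that rose were 5 ADAMs, Adam8, Adam12, Adam23, Adam17 and Adam9, and 1 MMP, Mmp19. The member that fell was the inhibitor Timp4. KO and WT libraries did not overlap for 18 members that were higher and 2 that were lower in KO, 43.5% of those tested, against 33.3% of all tested genes. At an unadjusted p under 0.05 there were also 20, against 27.6% of all tested genes. Adamts18 is among the 18 and the 20, although it passed the filter through its KO libraries alone. By direction, 39.1% of the tested members were higher without overlap, against 17.8% of all tested genes, and 4.35% lower, against 15.5%. The median log2 fold change, KO over WT, was 0.36 over the 46 tested members and 0.0052 over all tested genes. In GENCODE (GRCm38) Adam8 lies at chr7:139978932-139992562, Adam12 at chr7:133883199-134232146, Adam23 at chr1:63445891-63596276 and Adam17 at chr12:21323509-21373632. Adam9 lies at chr8:24949611-25016927, Mmp19 at chr10:128790910-128800824 and Timp4 at chr6:115241892-115252205.

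**Figure D1:**
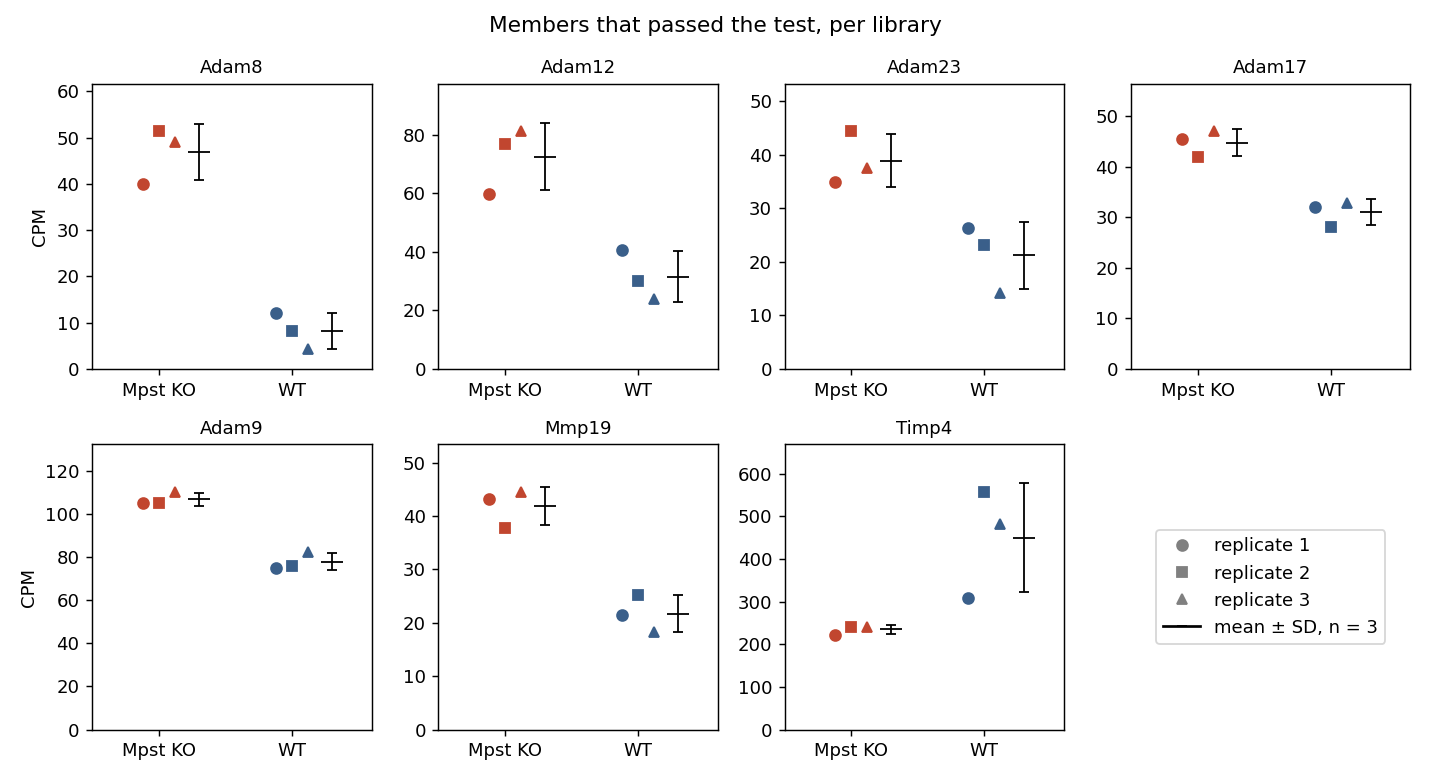
CPM (y axis) of the 7 members that passed the test, with a point per library, KO left of WT, and the mean ± SD (n = 3) beside the points. In each panel the KO and WT libraries do not overlap, with Adam8, Adam12, Adam23, Adam17, Adam9 and Mmp19 higher and Timp4 lower in KO.

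Of the 23 MMP genes, 10 lie within 427072 bases of chromosome 9 (GRCm38, 7272514 to 7699585). In the order of the chromosome they are Mmp13, Mmp12, Mmp1b, Mmp3, Mmp1a, Mmp10, Mmp8, Mmp27, Mmp20 and Mmp7. Only 4 of them, Mmp13, Mmp12, Mmp3 and Mmp27, passed the filter. RefSeq promoters (GRCm38.p6, 250 bases before to 50 after a start) were searched on both strands for the AP-1 motif TGANTCA, bound by Fos and Jun factors, and for the TATA box TATAAA. Both motifs stood together in 1 promoter of each of 8 of the 10 genes, all but Mmp8 and Mmp27. That is 8 of the 12 promoters of these genes, against 1.54% of 32851 promoters. Alone, the AP-1 motif was in 7.81% and the TATA box in 13.6% of promoters. In the 34 promoters of tested members of all families, each was in 11.8%. In each of these 8 promoters a TATA box began 19 to 48 bases after the start of the AP-1 motif, without overlap, and the Mmp7 promoter held another TATA box before it. The spacing was 19 bases in Mmp13, 48 in Mmp12 and 39 in Mmp3. Relative to the annotated start, the TATA box began 16 bases before it in Mmp13, 7 before it in Mmp3 and 4 after it in Mmp12. The promoters of the 3 detected genes with both motifs are shown because they hold this pair, beside that of Mmp1a, which has the same motifs but had 1 count in all libraries together, and that of Mmp27, which was detected without them. Capitals mark the AP-1 motif, the TATA box and, in Mmp13, the ETS motif AGGAAGT, which 9.35% of promoters held on either strand. The positions are chr9:7272264-7272563, plus strand for Mmp13, chr9:7347124-7347423, plus strand for Mmp12 (the second of 2 annotated starts), chr9:7445572-7445871, plus strand for Mmp3, chr9:7463891-7464190, plus strand for Mmp1a, and chr9:7571146-7571445, plus strand for Mmp27.
Mmp13: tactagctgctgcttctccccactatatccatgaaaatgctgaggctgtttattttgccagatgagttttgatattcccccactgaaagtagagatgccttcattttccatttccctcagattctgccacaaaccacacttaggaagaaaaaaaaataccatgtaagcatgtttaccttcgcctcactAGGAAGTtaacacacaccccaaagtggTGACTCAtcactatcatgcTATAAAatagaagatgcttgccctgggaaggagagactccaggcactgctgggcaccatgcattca
Mmp12: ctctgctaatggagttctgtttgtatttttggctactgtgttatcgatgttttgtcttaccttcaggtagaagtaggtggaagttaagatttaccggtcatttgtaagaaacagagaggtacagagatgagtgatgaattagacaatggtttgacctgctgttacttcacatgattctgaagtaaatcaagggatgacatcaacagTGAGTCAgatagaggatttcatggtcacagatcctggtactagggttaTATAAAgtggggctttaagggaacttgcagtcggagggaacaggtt
Mmp3: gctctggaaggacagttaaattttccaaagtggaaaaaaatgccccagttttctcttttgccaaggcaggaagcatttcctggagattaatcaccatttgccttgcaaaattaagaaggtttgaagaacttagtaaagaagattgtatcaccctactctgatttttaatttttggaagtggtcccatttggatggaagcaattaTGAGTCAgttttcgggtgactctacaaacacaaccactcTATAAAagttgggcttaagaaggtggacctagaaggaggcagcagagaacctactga
Mmp1a: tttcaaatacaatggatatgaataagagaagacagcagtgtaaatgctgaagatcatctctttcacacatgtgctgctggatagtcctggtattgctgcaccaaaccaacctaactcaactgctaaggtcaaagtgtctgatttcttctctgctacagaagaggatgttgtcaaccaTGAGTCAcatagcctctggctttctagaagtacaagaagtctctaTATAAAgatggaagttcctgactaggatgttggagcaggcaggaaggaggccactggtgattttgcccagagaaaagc
Mmp27: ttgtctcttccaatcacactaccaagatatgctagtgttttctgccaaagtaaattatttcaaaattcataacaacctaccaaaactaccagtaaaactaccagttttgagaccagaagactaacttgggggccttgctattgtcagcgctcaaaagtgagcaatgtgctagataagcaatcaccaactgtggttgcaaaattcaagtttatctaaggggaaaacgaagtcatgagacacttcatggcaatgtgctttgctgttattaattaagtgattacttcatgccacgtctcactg

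Mmp12, the macrophage metalloelastase, had 142, 171 and 93.4 CPM in the KO libraries and 27.0, 20.0 and 1.86 CPM in the WT libraries. Every KO library was above every WT library, and WT replicate 3 lay far below the other WT libraries. It had a log2 fold change of 3.06 (SE 0.91), the largest in size among the 46 tested members, and did not pass the test (adjusted p = 0.104). The gene was called by limma-voom, by DESeq2, without robust estimation and without WT replicate 3, in which the log2 fold change was 2.53. Mmp12 was singled out after its values were seen. Mmp1b, on the opposite strand, shares 157 exon bases with Mmp12 in GENCODE and was at 0 in every library.

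Mmp3, stromelysin 1, which cuts proteoglycans and activates other MMPs, had 133, 152 and 108 CPM in KO and 91.8, 94.8 and 49.0 CPM in WT. The groups did not overlap, and WT replicate 3 was again the lowest of the WT libraries, as in 5588 of all 14065 tested genes. Its log2 fold change of 0.74 (SE 0.24) did not pass (adjusted p = 0.0947). Mmp3 was called by DESeq2 and, at a log2 fold change of 0.49, without WT replicate 3. Mmp13, a collagenase, had 1.19, 1.94 and 2.38 CPM in KO and 0.674, 0.729 and 1.25 CPM in WT, where KO replicate 1 fell below WT replicate 3. It had a log2 fold change of 1.07 (SE 0.38, adjusted p = 0.113), from 10 to 56 counts per library, and it too was singled out after its values were seen. Mmp27 had 1.55 to 2.33 CPM in KO and 1.40 to 2.41 CPM in WT, so that the WT range enclosed the KO range.

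**Figure D2:**
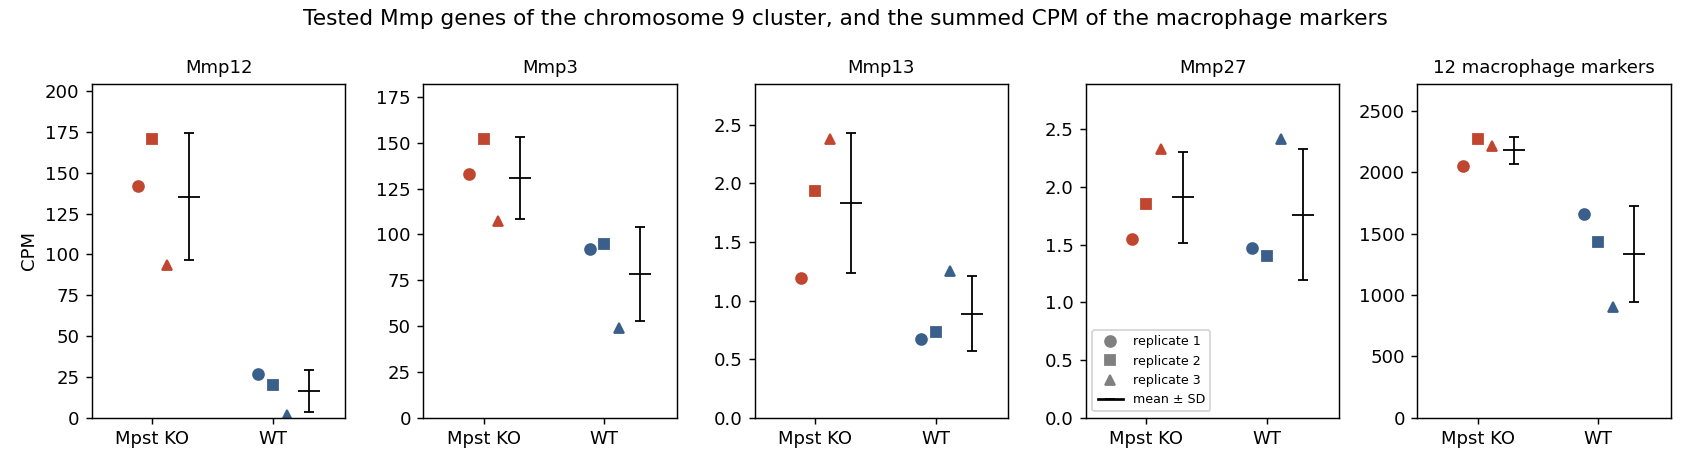
CPM per library (y axis, from 0) of the 4 tested Mmp genes of the chromosome 9 cluster and, in the last panel, the sum over the 12 macrophage markers, KO left of WT, with mean ± SD (n = 3). Mmp12, Mmp3 and the macrophage sum do not overlap between genotypes and are lowest in WT replicate 3, while Mmp13 and Mmp27 overlap.

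Mmp19, a secreted MMP that cuts basement membrane proteins, was the MMP that passed the test. It had 43.3, 37.8 and 44.5 CPM in KO and 21.5, 25.2 and 18.3 CPM in WT, so that every KO library lay well above the WT range. Mmp19 rose 1.93-fold, or 0.95 on the log2 scale (SE 0.15, adjusted p = 0.0154). Mmp19 shares 789 exon bases with Tmem198b on the opposite strand, which had 46 to 204 counts in KO and 38 to 110 counts in WT. The libraries do not mark strand, so reads from that stretch cannot be assigned to either gene. Whether they were counted or left out as ambiguous is not stated.

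The gelatinases cut denatured collagen and basement membrane collagen. Mmp2, gelatinase A, had 186, 183 and 196 CPM in KO and 175, 150 and 152 CPM in WT, without overlap. Its log2 fold change of 0.24 (SE 0.12) did not pass (adjusted p = 0.213). Mmp9, gelatinase B of myeloid cells, had 14.2 to 17.7 CPM in KO and 13.2 to 19.2 CPM in WT, with a log2 fold change of −0.04. Of 6 membrane-type MMPs, 3 were tested and none was called by edgeR's quasi-likelihood test, where 7.41% of all tested genes were. None was at an unadjusted p under 0.05, against 27.6%, or called by DESeq2 (14.3%) or limma-voom (7.64%). Beside these shares, 3 genes are too few for the absence of calls to set them apart. The most abundant, Mmp14, which cuts fibrillar collagen and activates MMP2, had 244, 289 and 181 CPM in KO and 307, 244 and 135 CPM in WT. Its libraries overlapped widely, and its log2 fold change was 0.06 (SE 0.29, adjusted p = 0.918), with the opposite sign without KO replicate 2 or WT replicate 3. Mmp15 and Mmp17 had log2 fold changes of −0.19 and 0.46, and Mmp11, Mmp23 and Mmp28 of 0.21, −0.04 and 0.45, none of them past the test.

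**Figure D3:**
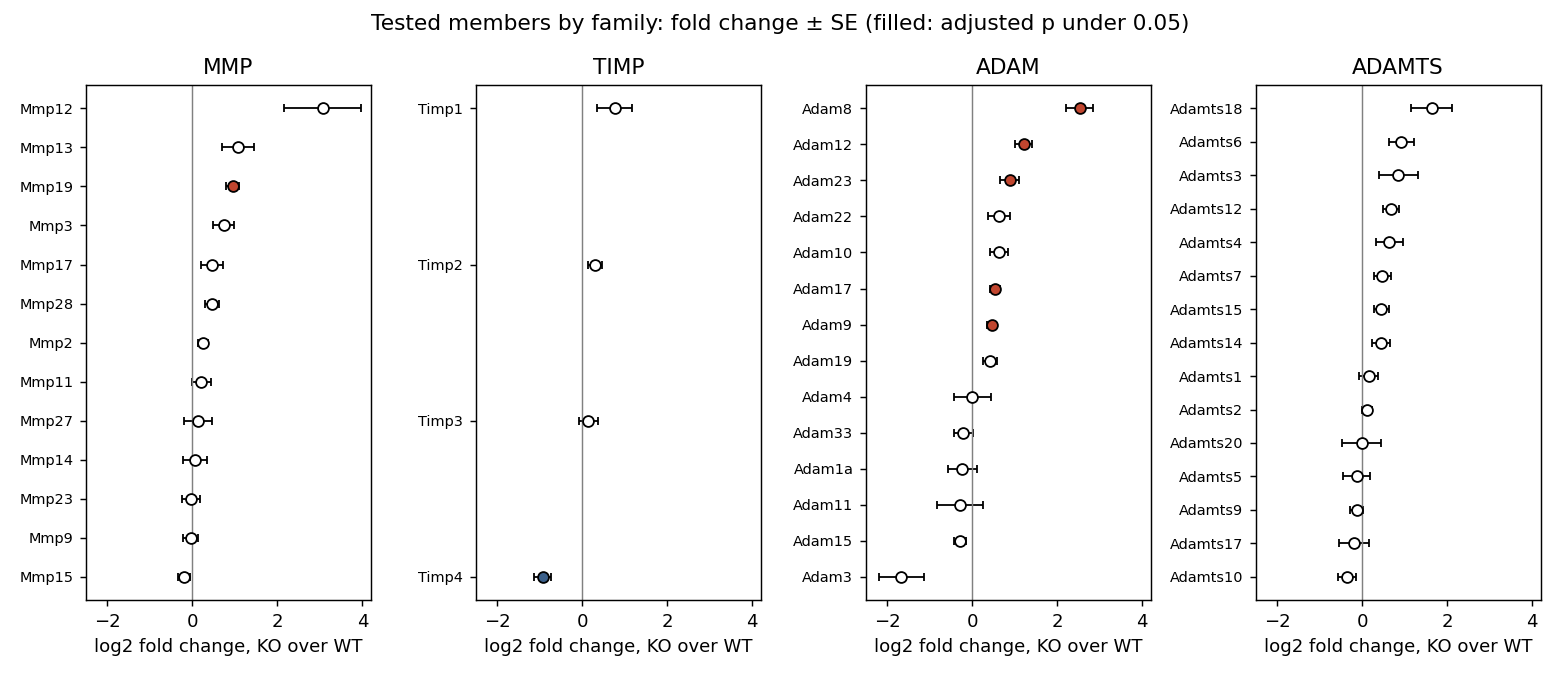
Log2 fold change, KO over WT, with its SE (x axis) for the 46 tested members in 4 panels by family, with filled circles for an adjusted p under 0.05. The filled circles are Mmp19, Timp4, Adam8, Adam12, Adam23, Adam17 and Adam9, and Mmp12 lies farthest to the right with the widest bar among the MMPs.

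All 4 TIMPs were tested, and Timp4, the inhibitor known from fat and heart, was the only one that passed. It had 223, 241 and 242 CPM in KO and 309, 557 and 483 CPM in WT. The KO libraries lay close together and below every WT library, of which replicate 1 was the lowest. In the edgeR fit Timp4 fell by 0.94 as a log2 fold change (SE 0.21, adjusted p = 0.0339), a level 0.522 times that of WT. The gene lies inside Syn2, which is on the opposite strand and shares 90 exon bases with it. Syn2 had 73 to 306 counts in KO and 99 to 358 counts in WT, with a log2 fold change of −0.10 (adjusted p = 0.87). Adipocyte markers were lower in the same libraries, with 3 of 10 called lower, against 2.65% of all tested genes. Their median log2 fold change was −0.37 over the 10, and their sums did not overlap.

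Timp2, which with MMP14 activates MMP2, had 299, 301 and 283 CPM in KO and 272, 261 and 181 CPM in WT. These did not overlap, but the log2 fold change of 0.31 (SE 0.17) did not pass (adjusted p = 0.261). Timp3, bound to the matrix and an inhibitor of ADAM17, had 438, 381 and 591 CPM in KO and 322, 423 and 539 CPM in WT, with a log2 fold change of 0.13 (SE 0.22, adjusted p = 0.738) that turned negative without KO replicate 3 or WT replicate 1. Its libraries overlapped, and its 1733 exon bases shared with Syn3 on the opposite strand met only 3 to 16 Syn3 counts in KO and 6 to 13 in WT. Timp1, the inhibitor induced in inflamed tissue, had 10.4, 10.7 and 7.13 CPM in KO and 8.27, 6.14 and 2.28 CPM in WT. It had a log2 fold change of 0.76 (SE 0.41, adjusted p = 0.258), and the libraries overlapped. Divided by exon length, Timp4 made up 21.0%, 23.1% and 21.1% of the summed TIMP level in the KO libraries and 30.7%, 42.9% and 41.6% in the WT libraries. Timp2 made up 42.7%, 43.7% and 37.4% in KO and 40.8%, 30.4% and 23.6% in WT.

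Of 33 ADAM genes, 14 were tested. By edgeR's quasi-likelihood test 5 rose and none fell, where 4.76% of all tested genes were called higher and 2.65% lower. At an unadjusted p under 0.05, 8 were higher and 1 lower (Adam3), where 27.6% of all tested genes lay in either direction. DESeq2 called 6 higher and 1 lower (Adam3), against 7.8% and 6.49% of all genes. By limma-voom 5 were higher and none lower, against 4.98% and 2.66%. The 9 ADAMs that are known as active proteases outside the testis held 4 of the 5 edgeR calls, among 8 tested. The 3 ADAMs without a working protease site held the fifth, Adam23.

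Adam8, a protease of leukocytes, had 39.9, 51.4 and 49.1 CPM in KO and 12.01, 8.21 and 4.32 CPM in WT. The KO libraries lay far above the WT libraries, of which replicate 3 was the lowest. Adam8 rose 5.78-fold, or 2.53 on the log2 scale (SE 0.31, adjusted p = 0.012), and the fold ranged from 4.66-fold without WT replicate 3 to 7.60-fold without WT replicate 1. The sum of the macrophage markers was also higher in KO and lowest in WT replicate 3. That library was the lowest of the 3 WT libraries in 5588 of all 14065 tested genes. Among the 46 tested members it was the lowest in 17 and the highest in 19. Adam12, which cuts IGF-binding proteins and is known from mesenchymal cells of injured tissue, had 59.7, 76.6 and 81.2 CPM in KO and 40.8, 29.9 and 23.7 CPM in WT. All KO libraries were above the WT libraries, and Adam12 rose 2.31-fold, or 1.21 on the log2 scale (SE 0.20, adjusted p = 0.0182).

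Adam17, the TNF-converting enzyme, had 45.4, 41.9 and 47.1 CPM in KO and 32.1, 28.1 and 32.9 CPM in WT, with little spread within a genotype. It rose by 0.53 on the log2 scale (SE 0.12, adjusted p = 0.0354). Adam17 shares 311 exon bases with Iah1 on the opposite strand, which had 800 to 2252 counts in KO and 2362 to 2688 counts in WT. Adam9, a sheddase of many tissues, rose by 0.46 (SE 0.11, adjusted p = 0.038), at 105, 105 and 110 CPM in KO and 75.0, 75.8 and 82.2 CPM in WT. Adam23, which lacks a working protease site and binds integrins and LGI proteins, had 34.9, 44.5 and 37.5 CPM in KO and 26.4, 23.1 and 14.3 CPM in WT. It rose by 0.88 (SE 0.22, adjusted p = 0.0452) and missed the threshold with relative log expression size factors, at a log2 fold change of 0.87.

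Adam10, the protease that cuts Notch, had 82.6, 87.9 and 84.0 CPM in KO and 75.0, 41.7 and 47.5 CPM in WT. The groups did not overlap, though WT replicate 1 came close to KO, and the log2 fold change of 0.63 (SE 0.20) did not pass (adjusted p = 0.0872). Adam10 was called by DESeq2 and without WT replicate 1. Adam15, the ADAM with the highest level per exon length, had 295, 288 and 242 CPM in KO and 358, 358 and 292 CPM in WT. KO replicate 1 lay just above WT replicate 3, so the groups overlapped, and the log2 fold change of −0.29 did not pass (SE 0.14, adjusted p = 0.224). Adam19, Adam22, Adam33 and Adam11 had log2 fold changes of 0.41, 0.63, −0.21 and −0.29, with adjusted p from 0.156 to 0.768. Adam3, known from sperm, had 4 to 42 counts in KO and 31 to 147 counts in WT, with a log2 fold change of −1.67 (SE 0.53, adjusted p = 0.0854), and was called by DESeq2. It was singled out after its values were seen.

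Adam8 had the largest fold change among members that passed, and Timp4 was the only fall, so their RefSeq promoters (GRCm38.p6) are shown. They lie at chr7:139992513-139992812, minus strand for Adam8, and at chr6:115252156-115252455, minus strand for Timp4. Neither window held the AP-1 motif TGANTCA, the TATA box TATAAA or the E-box CACGTG, found in 7.15% of promoters, on either strand. Capitals in Timp4 mark a match to the ETS motif AGGAAGT on the other strand. RefSeq promoters were found for 30 of the 46 tested members, among them Adam23 and Adam17, which held none of the 4 motifs.
Adam8: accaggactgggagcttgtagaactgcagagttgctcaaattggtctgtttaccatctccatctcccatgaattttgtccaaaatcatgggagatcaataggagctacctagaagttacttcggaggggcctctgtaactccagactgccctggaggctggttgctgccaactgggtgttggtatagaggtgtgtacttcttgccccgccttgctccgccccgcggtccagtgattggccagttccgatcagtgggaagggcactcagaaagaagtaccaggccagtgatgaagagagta
Timp4: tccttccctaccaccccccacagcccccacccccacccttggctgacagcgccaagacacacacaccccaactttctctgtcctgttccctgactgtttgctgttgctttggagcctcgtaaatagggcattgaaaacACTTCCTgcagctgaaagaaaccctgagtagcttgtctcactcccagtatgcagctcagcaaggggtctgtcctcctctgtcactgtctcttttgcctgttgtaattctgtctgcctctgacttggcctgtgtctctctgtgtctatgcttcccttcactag

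Of 19 ADAMTS genes, 15 were tested and none was called by edgeR's quasi-likelihood test, against 7.41% of all tested genes. At an unadjusted p under 0.05, 5 were higher and none lower, where 27.6% of all tested genes lay in either direction. Of these 5, Adamts18 entered the test through its KO libraries alone, so its direction was set by the filter. DESeq2 called 1, Adamts12, against 14.3% of all genes, and limma-voom none, against 7.64%. Adamts12, which cuts cartilage oligomeric matrix protein, had 47.5, 68.3 and 78.8 CPM in KO and 39.8, 36.2 and 46.3 CPM in WT. Its groups just failed to touch, with a log2 fold change of 0.67 (SE 0.19, adjusted p = 0.0621). Adamts18, whose substrates are little known, had 1.19, 0.792 and 0.891 CPM in KO and 0.429, 0.122 and 0.325 CPM in WT, with a log2 fold change of 1.64 (SE 0.48, adjusted p = 0.0694). No WT library reached the filter.

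The most abundant ADAMTS gene was Adamts5, an aggrecanase that cuts versican and aggrecan, with 630, 586 and 376 CPM in KO and 876, 495 and 363 CPM in WT. Replicates of each genotype spread more than the genotypes differed, with a log2 fold change of −0.12 (SE 0.32, adjusted p = 0.834), positive without KO replicate 3 or WT replicate 1. Adamts2, which trims the end of procollagen, had 155, 142 and 133 CPM in KO and 138, 136 and 120 CPM in WT (log2 fold change 0.13, SE 0.12, adjusted p = 0.535). Adamts10, which binds fibrillin, had 52.1, 54.3 and 66.5 CPM in KO and 65.0, 57.3 and 99.6 CPM in WT (log2 fold change −0.36, SE 0.21, adjusted p = 0.294). In the remaining 10 tested ADAMTS genes log2 fold changes ran from −0.19 in Adamts17 to 0.93 in Adamts6.

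Levels of different genes were compared as CPM per kilobase of exon, with all annotated exons of a gene merged. By group means, the order in KO ran from Timp2 (75.6) through Mmp3 (72.7), Timp3 (57.7), Mmp2 (55.9), Adamts5 (49.2), Adam15 (44.8), Mmp14 (39.95) and Timp4 (39.9) to Adam9 (25.9). In WT it ran from Timp4 (76.3) through Timp2 (61.1), Adam15 (54.7), Adamts5 (53.6), Timp3 (52.5), Mmp2 (47.2), Mmp3 (43.6) and Mmp14 (38.4) to Adam9 (18.9). Timp4 was thus eighth in KO and first in WT, and Mmp3 second in KO and seventh in WT. With the 6 libraries pooled, each of the first 8 overlapped in range with the next in order. Summed over the family, MMPs reached 232.5, 256.6 and 211.6 CPM per kilobase in KO and 198.9, 180.2 and 131.2 in WT. ADAMs reached 119.5, 125.8 and 121.5 in KO and 112, 103.6 and 97.5 in WT. Both sums were higher in every KO library than in any WT library. TIMPs reached 180.1, 176.9 and 194.2 in KO and 171, 220.4 and 197.2 in WT. ADAMTS genes reached 106, 104.1 and 85.03 in KO and 128, 86.04 and 79.19 in WT, and both of these sums overlapped. As means, Mmp3 made up 72.7 CPM per kilobase of the MMP sum in KO and 43.6 in WT, and Mmp12 18.7 and 2.25. The merged exons held 7237 bases in Mmp12 and 1801 in Mmp3. The order of genes and the shares within a family therefore depend on the annotation.

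**Figure D4:**
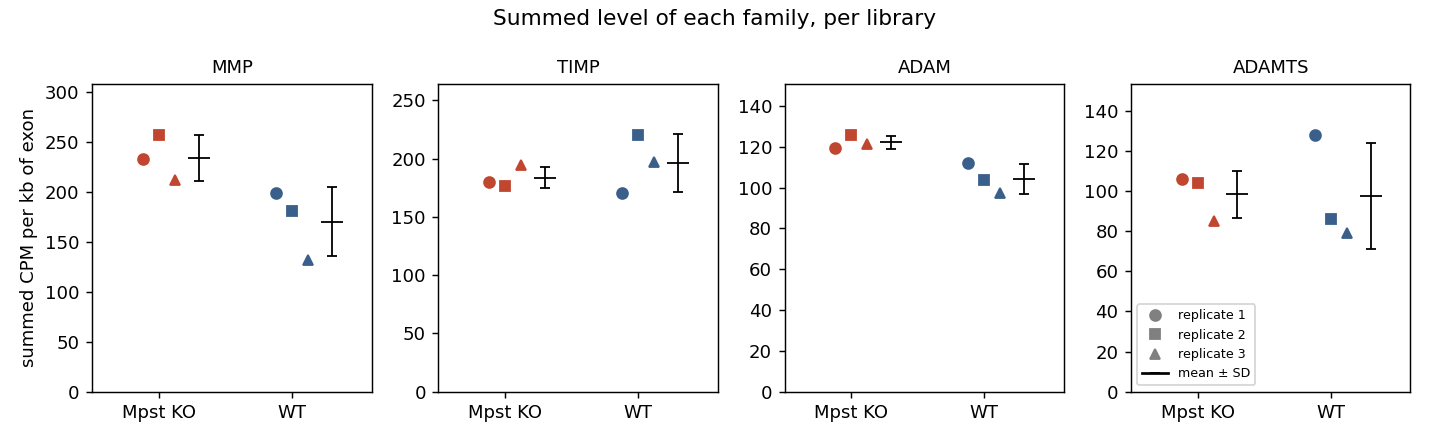
Level summed over all members of each family, in CPM per kilobase of exon (y axis, from 0), with a point per library, KO left of WT, and mean ± SD (n = 3). The MMP and ADAM sums lie higher in the KO libraries without overlap, and the TIMP and ADAMTS sums overlap.

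The 33 members that did not pass the filter comprised 10 MMPs, 19 ADAMs and 4 ADAMTS genes. Of these, 14 had 0 counts in every library, which are Mmp1b, Mmp20, Mmp24 and 11 ADAMs, most of them known from testis. A count of 0 allows up to 0.127 to 0.358 CPM per library (3 counts, counting error only). The other 19 had at least 1 count and reached at most 0.976 CPM in any library. Mmp8, the collagenase of neutrophils, had 13 counts in all, 8 of them in WT replicate 1, and Mmp7, the matrilysin of epithelium, had 1.

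Genes that act with these enzymes were counted from lists chosen for their role. Over all tested genes, edgeR called 4.76% higher and 2.65% lower, DESeq2 called 14.3% and limma-voom 7.64%. An unadjusted p under 0.05 by edgeR was found for 27.6%. Among genes of the plasminogen system, which activates MMPs, Klkb1, plasma prekallikrein, was called lower by edgeR's quasi-likelihood test, with a log2 fold change of −1.27 (adjusted p = 0.044). Its counts were low, with 6, 20 and 18 in KO and 28, 29 and 49 in WT. None of 5 proprotein convertases, which cut the prodomains of ADAMs and membrane-type MMPs, was called by edgeR's quasi-likelihood test. At an unadjusted p under 0.05, and by DESeq2, Pcsk4 and Pcsk6 were lower in KO, while limma-voom called none. Among 7 tested inhibitors and inducers of these proteases, Cd44, a docking site of MMP9, was called higher (1.30 on the log2 scale, adjusted p = 0.022), and Reck, a membrane inhibitor of MMPs, was not (0.42, adjusted p = 0.166).

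Of 8 tested partners of ADAM17 and ADAM10, the tetraspanin Tspan33 rose 3.18-fold (adjusted p = 0.0264), while the iRhom genes Rhbdf1 and Rhbdf2 had log2 fold changes of −0.0017 and 0.11. Of 26 tested substrates of these ADAMs, edgeR's quasi-likelihood test called 1, App, against 4.76% of all tested genes called higher. App, the amyloid precursor protein, had 803 ± 52.0 CPM in KO and 397 ± 116 CPM in WT (SD, n = 3, log2 fold change 1.02, adjusted p = 0.0315). DESeq2 called 4 substrates, App, Kit, Tnfrsf1b and Trem2, against 14.3% of all genes, and limma-voom 2, App and Trem2, against 7.64%. Trem2, a receptor of macrophages, had a log2 fold change of 2.002 (adjusted p = 0.0928 by edgeR). Tnf itself had 1.83 ± 0.86 CPM in KO and 1.43 ± 0.209 CPM in WT (log2 fold change 0.41, adjusted p = 0.523). None of 7 ADAMTS-like genes was called by edgeR's test, 1 was at an unadjusted p under 0.05 (Papln, log2 fold change 1.31), and DESeq2 called 1 and limma-voom 0. Among 8 tested substrates and partners of ADAMTS proteases, Thbs1 (1.32 on the log2 scale, adjusted p = 0.0128) and Vwf (0.40, adjusted p = 0.0467) were called higher. Vwf is also among the 7 endothelial markers, all with a log2 fold change above 0, as in 7099 of 14065 tested genes. Adamts13, the protease of von Willebrand factor, had 1 count in all libraries together. Of 17 further proteases that can act on matrix or secreted proteins, the lysosomal Ctss (1.83) and Ctsk (0.89) and the membrane enzyme Mme (0.48) were called higher and Prtn3, of neutrophil granules, lower (−2.05).

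With all 6 libraries kept, the calls were compared across settings. All 7 calls were kept with upper-quartile scaling, where 7.58% of all genes were called, without a low-count filter (5.72%) and among genes of at least 10 CPM on average (9.3%). With relative log expression size factors 6 were kept, against 6.85% of all genes. Without robust estimation (7.16%) and by limma-voom (7.64%) all 7 were kept and Mmp12 was added. DESeq2 called 12 of 45 members, against 14.3% of all genes, with 10 higher, against 7.8%, and 2 lower, against 6.49%. The 5 it added were Adam10, Adam3, Adamts12, Mmp12 and Mmp3.

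The calls depended on single libraries. No member was called without WT replicate 2, without KO replicate 2 or without KO replicate 3, and only Adam8 without KO replicate 1. Across all genes the fits called 0.00695% without WT replicate 2, 0.0141% without KO replicate 2, 0.0213% without KO replicate 3 and 0.32% without KO replicate 1. Without WT replicate 1, 5 of the 7 calls remained, Adam17 and Adam9 being lost and Adam10 gained, against 5.55% of all genes. Without WT replicate 3 all 7 remained and Adamts12, Adamts6, Mmp12, Mmp13, Mmp28 and Mmp3 were added, against 18.3% of all genes. The log2 fold changes ranged from 0.43 to 0.51 for Adam9, 0.46 to 0.58 for Adam17, 0.66 to 1.08 for Adam23, 0.85 to 1.07 for Mmp19, 1.04 to 1.45 for Adam12 and −1.14 to −0.75 for Timp4. Without KO replicate 3 and WT replicate 2 together, the libraries highest in muscle transcripts, no member was called, against 0.00711% of all genes. Since the groups did not overlap for these members, leaving out a library could not turn the order of their CPM, and the kept direction adds no support.

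**Figure D5:**
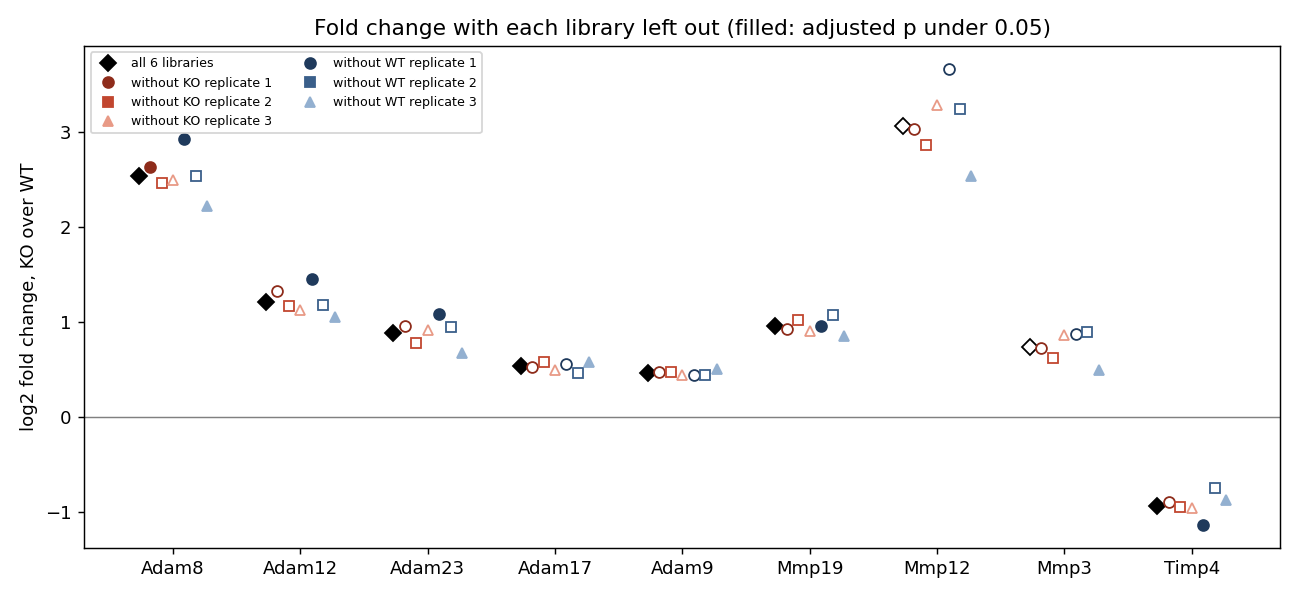
Log2 fold change, KO over WT (y axis), of the 7 called members and of Mmp12 and Mmp3 with all 6 libraries and with each library left out, with filled symbols for an adjusted p under 0.05. The signs hold in all 9 genes, and no symbol is filled without WT replicate 2, KO replicate 2 or KO replicate 3.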

How the data were processed

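Per the labels' protocols, TRIzol RNA was made into libraries with a TruSeq RNA v2 kit and sequenced as single-end reads. That kit keeps no strand. The submitters' processing notes name HISAT2 2.1.0, HTSeq 0.13.5, DESeq2 1.26 and mm10. The sources used here do not state the annotation or the counter's settings. The authors deposited raw counts per gene symbol, and summary lines of the counter were left out (8.85 to 14.7% of uniquely aligned reads in no gene, 1.63 to 1.83% ambiguous).

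Counts were fitted in R 4.3.3 with edgeR 4.0.16 (filterByExpr, TMM scaling, robust quasi-likelihood F test, 3 KO against 3 WT, no covariate), with Benjamini-Hochberg adjustment over all 14065 tested genes. SE is the log2 fold change over the square root of F. The filter asks for about 0.508 CPM in at least 3 libraries. The script was tested on simulated data. Exon lengths and positions came from GENCODE M21 (GRCm38), which may differ from the authors' annotation, and promoters from RefSeq. Alternatives used limma 3.58.1, DESeq2 1.42.0, other scalings and filters, a replicate block and each library left out. The members and lists were chosen with earlier results of these data known. Members given in full were those called, the 3 of highest level and the 2 of smallest p per family. Other members given by value fall outside this rule, and only some of them are said to be singled out or come by family range. The genes of the lists given by value include some that edgeR did not call, such as Trem2, Tnf and Reck. A gene of the plasminogen list is not reported here.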

Additional observations from a re-analysis of the deposited data

How the results depend on the processing

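Relative log expression or upper-quartile scaling, no or a stricter low-count filter (10 CPM on average), no robust estimation and limma-voom kept the counts of all genes called (885 to 1090, against 1042) and of members called higher and lower within 1.5 times. DESeq2 called 1968 genes, with 10 members higher and 2 lower, 26.7% of the 45 members it gave an adjusted p, against 14.3% of all genes. Its share of higher calls was lower than edgeR's (1074 higher and 894 lower, against 669 and 373). With each library left out, calls ranged from 1 to 2601 for all genes, 0 to 12 for members higher and 0 to 1 for members lower. Without the library highest in muscle transcripts of each genotype, a setting chosen after seeing the data, 1 gene and 0 members higher and 0 lower were called, with 2 libraries a genotype. The cause was not tested. With each library left out, log2 fold changes of several members that were not called changed sign. They ranged from −0.21 to 0.34 for Mmp14, −0.066 to 0.34 for Timp3 and −0.37 to 0.31 for Adamts5. Mmp9 (−0.18 to 0.079), Mmp11 (−0.077 to 0.35), Mmp23 (−0.22 to 0.14), Adam11 (−0.88 to 0.43) and further members also changed sign. Without the muscle-rich libraries Timp3 was at −0.074. With the replicate number as a block, 2676 genes were called, 13 members higher and 2 lower (32.6% of 46, against 19% of all genes). The deviations of same-numbered libraries correlated at 0.171, -0.0994 and 0.303, and KO replicate 2 correlated best with WT replicate 1 (0.357). With 3 libraries a genotype these correlations depend on each other, so they cannot tell whether the numbers pair the samples. Depth limits Mmp13, Adam3, Adamts18, Klkb1 and the untested members, most in KO replicate 1.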
